A study of Mus musculus with 12 samples.

Results

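The growth factor receptors Egfr, Erbb2, Erbb3 and Met and the ligands Hgf, Tgfa, Areg, Hbegf, Btc and Ereg were followed in RNA-seq of mouse hepatocytes. These 10 genes were taken by name, as the EGF receptor family members, the HGF receptor and the mitogen ligands usually discussed for hepatocytes, and all were found among the 35709 gene identifiers of the deposited table. The cells came from male C57BL/6J mice aged 8 to 10 weeks. All mice carried Cre recombinase driven by the albumin promoter. In the Alb-R3 mice the Fgfr3 gene is labelled as deleted in hepatocytes, and the Alb-Cre mice served as controls. Each genotype was injected intraperitoneally with olive oil or with carbon tetrachloride (CCl4), a compound toxic to hepatocytes, dosed at 0.4 mg per g in olive oil, and cells were taken after 48 h. The 4 groups, Alb-Cre oil, Alb-Cre CCl4, Alb-R3 oil and Alb-R3 CCl4, hold 3 samples each. Hepatocytes were enriched by Liberase perfusion, differential centrifugation and Percoll, which can leave some other liver cells in the preparation.

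Hepatocytes divide in response to ligands of the EGF receptor family and to hepatocyte growth factor (HGF). Egfr binds Tgfa, Areg, Hbegf, Btc and Ereg, which are made as membrane-bound precursors and released by proteases, whereas Erbb3 binds neuregulins and signals through a partner receptor. HGF is the ligand of Met; in liver it is made mainly by stellate and other non-parenchymal cells as an inactive precursor that serine proteases cleave.

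Each library totalled between 27200000 and 38800000 normalized counts, which correspond to 28000000 to 39600000 estimated reads. One library stood apart: in Alb-R3 CCl4 replicate 1, mitochondrially encoded genes took 32.3% of the normalized counts, against 6.22% to 12.8% in the other 11 libraries. Fgfr3 read 735, 888 and 988 in Alb-Cre oil, 523, 651 and 1109 in Alb-R3 oil, 951, 706 and 753 in Alb-Cre CCl4, and 478, 372 and 382 in Alb-R3 CCl4. The groups overlapped after oil, the value of 1109 in the library labelled Alb-R3 oil replicate 3 being above all 3 Alb-Cre values, and did not overlap after CCl4; neither genotype difference passed the threshold (limma adjusted p of 1 after oil and 0.252 after CCl4). The sources used here do not state the deleted exons, and a value summed over the gene therefore does not check the deletion. The 10 hepatocyte markers summed to between 2290000 and 3940000 normalized counts per library. No label states that the 3 samples of a group came from different animals, so each p-value reflects the spread among these libraries, part of which may be technical.

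The upstream sequences of the most abundant receptor and of the ligand that rose after CCl4 are shown for context. Each line gives the 250 bases before the gene's annotated start, 5′ to 3′ on the gene's strand, from RefSeq on GRCm38.p6, with capitals marking a GC box, the letters GGGCGG on either strand.
Egfr, chr11:16751953-16752202, plus strand: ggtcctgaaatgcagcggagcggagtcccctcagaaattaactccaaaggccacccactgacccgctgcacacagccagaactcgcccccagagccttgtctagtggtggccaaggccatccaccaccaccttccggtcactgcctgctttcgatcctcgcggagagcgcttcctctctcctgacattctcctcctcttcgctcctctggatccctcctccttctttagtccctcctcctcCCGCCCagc
Hgf, chr5:16553245-16553494, plus strand: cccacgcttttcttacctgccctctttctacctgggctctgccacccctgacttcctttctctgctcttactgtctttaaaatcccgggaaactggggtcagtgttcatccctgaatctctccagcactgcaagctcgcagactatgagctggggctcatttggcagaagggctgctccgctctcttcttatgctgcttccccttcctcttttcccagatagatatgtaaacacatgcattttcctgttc
The Egfr window was 60.8% G or C and held 1 GC box, on the minus strand. The Hgf window, the first of 2 that the table holds for this gene, was 50.8% G or C and held no match to any of the 6 motifs searched on both strands. Of the 10 members 7 had a window. Erbb3, Hbegf and Ereg had none and were not searched. The AP-1 motif, spelled TGANTCA, was present in 6.75% of all 32851 windows of this length, and among the members searched Met held 1. The cyclic AMP response element, spelled TGACGTCA, was present in 1.55% of windows and once in that of Areg. The GC box was present in 32.7% of windows, with 3 matches in Met, 2 in Tgfa and 1 in Areg. The CCAAT box, named for its letters, was present in 33.8% of windows and once in that of Erbb2. The TATA box, spelled TATAAA, was present in 12.4% of windows and once in that of Areg. The E-box, spelled CACGTG, was present in 6.02% of windows and once in that of Met. The Btc window held none of the 6, and the letters of no motif contain those of another. These matches describe the letters and are not evidence of binding.

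Per transcript length, Egfr was the most abundant member in all 4 groups. Its group means were 130 ± 58.7 FPKM (a read level corrected for transcript length and library size; SD, n = 3) in Alb-Cre oil, 121 ± 47.6 in Alb-Cre CCl4, 102 ± 41.6 in Alb-R3 oil and 77.7 ± 13.7 in Alb-R3 CCl4. In no group did the range of Egfr overlap that of the next member. Met and Erbb3 came next, with group means of 15.1 to 17.7 FPKM for Met and 11.5 to 20.7 FPKM for Erbb3, and their ranges overlapped in every group. Tgfa had group means of 7.12 to 12.6 FPKM; it lay apart from both receptors after oil and overlapped Erbb3 after CCl4 in each genotype. These 4 were the members with a mean of at least 1 FPKM in all 4 groups.

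The remaining members were far lower. Btc, Hbegf and Hgf read between 0.0455 and 1.69 FPKM over the 12 libraries, Erbb2 between 0 and 0.200 FPKM, and Areg and Ereg reached at most 0.0623 and 0.0281 FPKM. Neighbours in the order Btc, Hbegf and Hgf overlapped in each group except Hbegf and Hgf in Alb-R3 oil. The median ratio of Egfr to Met over the 12 libraries was 6.80, and that of Egfr to Erbb2 over the 11 libraries where Erbb2 was above 0 was 888, on the FPKM scale. So the libraries held abundant Egfr transcripts beside few transcripts of Erbb2, the usual partner receptor of the family, and Erbb3 was well above Erbb2 in all 12.

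**Figure D1:**
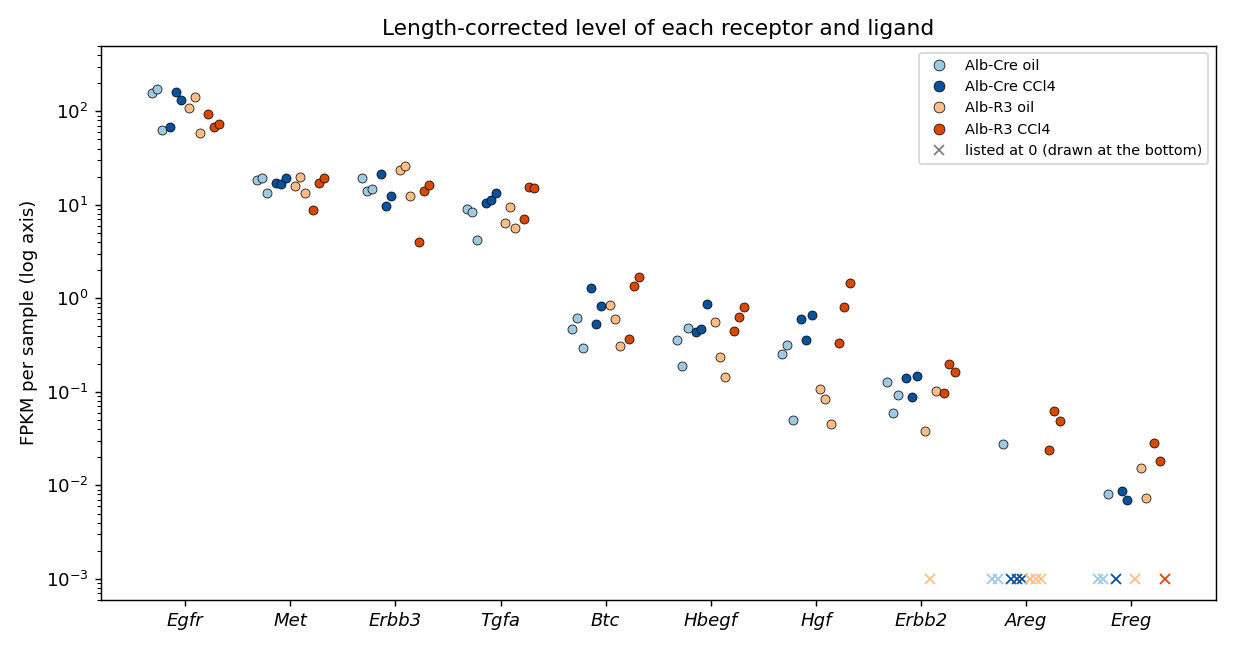
FPKM of each receptor and ligand in each of the 12 libraries on a log axis, ordered by mean level, with crosses at the bottom for values listed at 0. Egfr lies highest, Met, Erbb3 and Tgfa form a second tier, and Areg and Ereg are at or near 0.

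Egfr, which binds EGF, Tgfa and related ligands (ENSMUSG00000020122, GRCm38 chromosome 11, 16752203 to 16918158), varied widely between samples of the same group. Its normalized counts were 16260, 17640 and 6612 in Alb-Cre oil and 5902, 15270 and 11310 in Alb-Cre CCl4. In Alb-R3 they were 11180, 14910 and 6714 after oil and 9785, 5759 and 5862 after CCl4. The groups overlapped in both genotypes, although 2 of the 3 Alb-R3 CCl4 libraries lay below all 3 of the oil libraries. Fitted with limma on log2(normalized count + 1), the CCl4 minus oil difference was -0.30 ± 0.43 (SE) in Alb-Cre, with a 95% interval of -1.23 to 0.63 and an adjusted p of 0.806. In Alb-R3 the difference was -0.59 ± 0.43, with an interval of -1.52 to 0.34 and a limma adjusted p of 0.391. Both intervals include 0, and no change of Egfr was called. Without Alb-Cre CCl4 replicate 1 the Alb-Cre difference was 0.086.

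Met, the HGF receptor (ENSMUSG00000009376, chromosome 6, 17463800 to 17573980), had coefficients of variation of 5.24% to 26.3% within the groups. It read 1990, 2010 and 1437 normalized counts in Alb-Cre oil and 1527, 1601 and 1695 in Alb-Cre CCl4. The Alb-R3 libraries read 1695, 2152 and 1558 after oil and 944, 1489 and 1608 after CCl4. Groups overlapped in both genotypes, and the lowest value was that of the library rich in mitochondrial transcripts. The difference was -0.16 ± 0.21 on the log2 scale in Alb-Cre (interval -0.61 to 0.30, limma adjusted p = 0.791) and -0.44 ± 0.21 in Alb-R3 (limma adjusted p = 0.175). In Alb-Cre the sign turned under other scalings, to 0.073 with FPKM and 0.040 with mitochondrial genes left out of the totals.

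Erbb3, the neuregulin receptor whose own kinase is weak (ENSMUSG00000018166, chromosome 10, 128567523 to 128589652), fell after CCl4 in Alb-R3. Its normalized counts there were 4971, 5635 and 2918 after oil and 866, 2430 and 2692 after CCl4, so all 3 treated libraries lay below all 3 oil libraries. The means were 4508 ± 1416 and 1996 ± 988 (SD, n = 3), and the log2 difference was -1.28 ± 0.40 (limma adjusted p = 0.0406). In Alb-Cre it read 4122, 2904 and 3189 after oil and 3735, 1860 and 2172 after CCl4. Those groups overlapped, with a log2 difference of -0.45 ± 0.40 (limma adjusted p = 0.651).

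The Erbb3 call was close to the threshold. Without Alb-R3 CCl4 replicate 1, the library with 32.3% mitochondrial counts and the lowest Erbb3 value, the difference was -0.76 and the limma adjusted p 0.112. The call was also lost without Alb-R3 oil replicate 1 (-1.19, adjusted p = 0.127) or replicate 2 (-1.09, adjusted p = 0.142), and narrowly without Alb-Cre oil replicate 1 or 2 or Alb-Cre CCl4 replicate 3 (limma adjusted p of 0.0524, 0.0513 and 0.0532). Over 26 alternatives it was kept in 12, with differences of -1.58 to -0.76 and limma adjusted p from 0.0183 to 0.182. Leaving out both Alb-R3 CCl4 replicate 1 and the library labelled Alb-R3 oil replicate 3 gave -1.05 (limma adjusted p = 0.0306).

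Some hepatocyte markers also fell in the comparison in which Erbb3 fell. In Alb-R3 the 10 markers summed to 3250000 to 3920000 normalized counts after oil and 2290000 to 3260000 after CCl4. The median log2 difference was -0.71 over the list and 0.0016 over all genes tested. As a share of the library total, the sums were 9.21%, 10.98% and 9.17% after oil. After CCl4 they were 6.45% in replicate 1, 11.24% in replicate 2 and 11.44% in replicate 3. The share was lower than after oil only in replicate 1, the library rich in mitochondrial transcripts, and higher in replicates 2 and 3. Of the 10, 2 fell, Cyp2e1 and Tat, and 1 fell without Alb-R3 oil replicate 1 or with the library labelled Alb-R3 oil replicate 3 left out. In Alb-Cre the list median was -0.070 and limma called 0 of the 10, or 2 lower without Alb-R3 CCl4 replicate 1. The part of this movement in the Erbb3 result was not tested.

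Erbb2, which has no ligand of its own and pairs with the other receptors (ENSMUSG00000062312, chromosome 11, 98412470 to 98437716), was low. It read 14.7, 6.81 and 10.7 in Alb-Cre oil and 13.6, 9.15 and 14.1 in Alb-Cre CCl4. The Alb-R3 libraries gave 4.38, 0 and 13.01 normalized counts after oil and 11.4, 19.0 and 14.4 after CCl4. Groups overlapped in both genotypes. The log2 difference was 0.21 ± 0.76 in Alb-Cre (limma adjusted p = 0.933) and 1.89 ± 0.76 in Alb-R3 (limma adjusted p = 0.105). In Alb-R3 it passed the threshold in 4 of 26 alternatives (adjusted p from 0.0219 to 0.380), among them the fit with the library labelled Alb-R3 oil replicate 3 left out, which had the highest Erbb2 value of its group (2.75, limma adjusted p = 0.0219). The last bases of Erbb2 overlap Mien1 on the other strand, which averaged 1487 normalized counts; no source used here says whether counting used strand, so the few Erbb2 counts are uncertain.

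**Figure D2:**
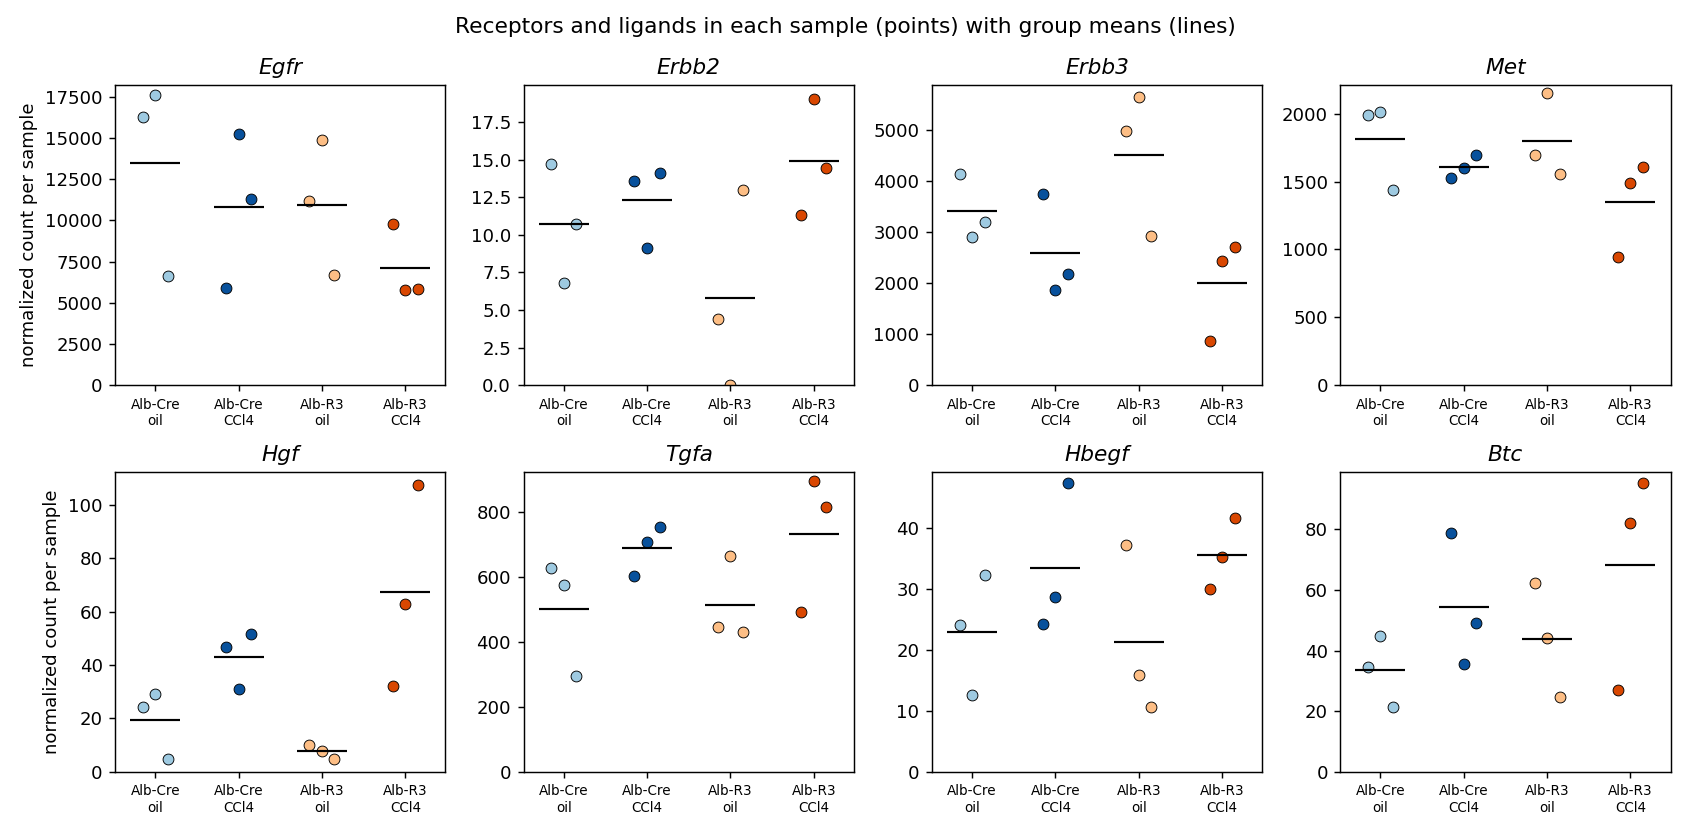
Normalized count of 8 receptors and ligands in each library (points) with the group mean (line), on linear axes that start at 0. Hgf after CCl4 lies above oil in both genotypes and Erbb3 lies lower after CCl4 in Alb-R3, whereas the Egfr and Met groups overlap.

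Hgf, the ligand of Met (ENSMUSG00000028864, chromosome 5, 16553495 to 16620152), rose after CCl4 in Alb-R3. Normalized counts were 10.2, 7.93 and 4.73 after oil and 32.0, 62.9 and 107 after CCl4. Every treated library exceeded every oil library, and the means were 7.62 ± 2.74 and 67.4 ± 37.9 (SD, n = 3), a ratio of 8.85. The log2 difference was 2.88 ± 0.62 (limma adjusted p = 0.00667). It stayed called in all 26 alternatives, with differences of 2.27 to 3.32 and limma adjusted p from 0.00033 to 0.0492. Without Alb-R3 CCl4 replicate 1 it was 3.32 (limma adjusted p = 0.00357), and with the library labelled Alb-R3 oil replicate 3 left out it was 2.61 (limma adjusted p = 0.0296).

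In Alb-Cre, Hgf read 24.2, 29.2 and 4.77 after oil and 46.7, 30.9 and 51.7 after CCl4. The treated libraries lay above the oil libraries without overlap, though the lowest treated value was close to the highest oil value. The log2 difference was 1.40 ± 0.62, which did not pass the threshold (unadjusted p = 0.0416, limma adjusted p = 0.266) and passed it in 0 of 26 alternatives (adjusted p from 0.145 to 0.630). Leaving out 1 library at a time gave differences of 0.65 to 1.84. The responses of the genotypes differed by 1.48 ± 0.88 in the interaction test (limma adjusted p = 0.802), so a larger Hgf response in Alb-R3 was not shown. After oil, Alb-R3 minus Alb-Cre was -0.98 ± 0.62 for Hgf, and after CCl4 it was 0.50 ± 0.62 (limma adjusted p of 0.967 and 0.897).

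In Alb-R3 most listed transcripts of stellate cells, a known source of HGF, rose after CCl4, as Hgf did. The markers Lrat, Ngfr and Hand2 were not called there. The 12 stellate cell and fibroblast markers summed to 537 to 735 normalized counts in Alb-R3 oil and 1310 to 3426 in Alb-R3 CCl4, and 9 of 12 rose (Reln, Pdgfrb, Des, Col1a1, Col1a2, Col3a1, Dcn, Lum and Acta2), with a median log2 difference of 2.15 over the list against 0.0016 over all genes tested. In Alb-Cre the sums were 1268 to 1427 after oil and 1948 to 2644 after CCl4, with 4 of 12 higher and a list median of 0.90; leaving out any 1 of the 6 Alb-Cre libraries reduced the 4 to 2. Acta2 was at 0 in 3 Alb-Cre oil libraries and 1 Alb-R3 oil library, and no other marker of this list was at 0 in any library. It passed the filter on low values only through the CCl4 libraries, so its calls, counted in the 9 and in the 4, support nothing. Over all genes tested, 10.9% were called higher in Alb-R3 and 3.46% in Alb-Cre. Relative to the marker sum, Hgf was 0.775% to 1.90% in Alb-R3 oil and 2.19% to 3.13% in Alb-R3 CCl4, without overlap, and 0.335% to 2.30% and 1.59% to 1.96% in the Alb-Cre groups, with overlap. The part of stellate transcripts in the Hgf result was not tested, and in these bulk samples more cells of a type and more RNA per cell cannot be told apart.

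Some markers of other non-parenchymal cells also rose in Alb-R3 after CCl4. Of 12 endothelial markers 10 rose, with sums of 2216 to 2612 after oil and 5161 to 6374 after CCl4. All 11 Kupffer cell and macrophage markers rose, from sums of 895 to 1329 to sums of 2634 to 13935, and 7 of them did without Alb-R3 oil replicate 1. Of 7 tested monocyte and neutrophil markers 3 rose (Ccr2, Cd14 and Lyz2). The sums of that list were 146 to 163 after oil and 400 to 4553 after CCl4. The highest macrophage and monocyte sums, 13935 and 4553, were both those of Alb-R3 CCl4 replicate 1, the library rich in mitochondrial transcripts. Replicates 2 and 3 summed to 2634 and 3375 for the macrophage list and to 400 and 663 for the monocyte list. In Alb-Cre limma called 0 of the endothelial, Kupffer cell, and monocyte and neutrophil markers. The Alb-Cre endothelial sums were 3805 to 5251 after oil and 4488 to 6290 after CCl4. Those of the macrophage list were 1394 to 2799 and 1581 to 2043, and those of the monocyte list 192 to 359 and 250 to 539. For each of these lists the Alb-R3 oil sums lay below those of every other group, so the Alb-R3 rises start from a lower level. The part of these cells in the results below was not tested.

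**Figure D3:**
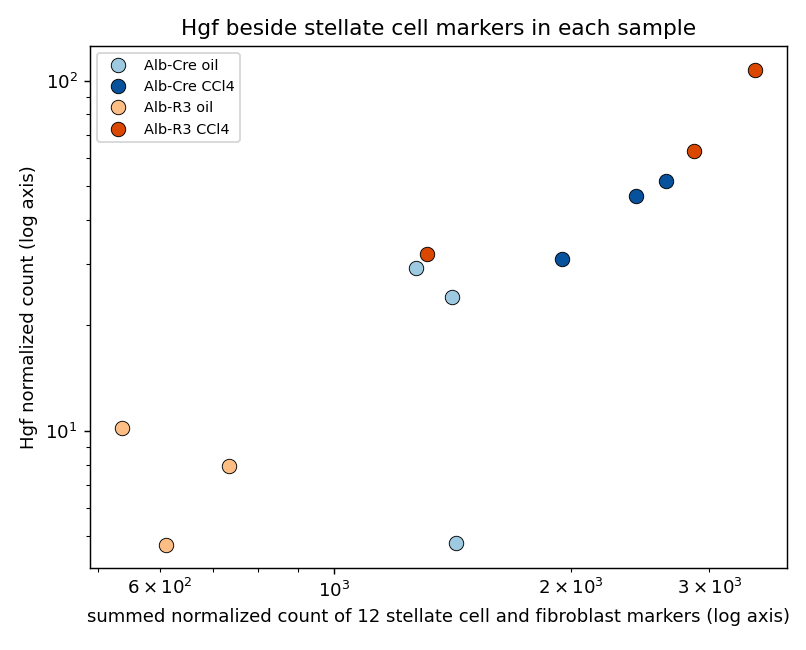
Hgf normalized count against the summed normalized count of 12 stellate cell and fibroblast markers in each library, both on log axes, colored by group. The Alb-R3 oil libraries lie at the lower left and the CCl4 libraries with the highest sums also have the highest Hgf; Alb-Cre oil replicate 3 has a low Hgf value at a sum like that of its group.

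Tgfa, an Egfr ligand that hepatocytes make themselves (ENSMUSG00000029999, chromosome 6, 86195223 to 86275719), was the most abundant ligand of the set. It read 626, 576 and 296 in Alb-Cre oil and 603, 706 and 753 in Alb-Cre CCl4. The Alb-R3 libraries read 444, 663 and 429 after oil and 492, 893 and 813 after CCl4. Groups overlapped in both genotypes, and the log2 differences were 0.53 ± 0.29 and 0.50 ± 0.29 (limma adjusted p of 0.407 and 0.279). Of the 26 alternatives in Alb-R3, 2 called it higher, rescaling without mitochondrial genes (0.91) and library weights (0.75), and the limma adjusted p ranged from 0.0203 to 0.541.

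Btc, betacellulin (ENSMUSG00000082361, chromosome 5, 91357261 to 91402994), and Hbegf, the heparin-binding EGF-like factor (ENSMUSG00000024486, chromosome 18, 36504927 to 36515805), were low. Btc read 34.7, 44.8 and 21.5 normalized counts in Alb-Cre oil, 78.8, 35.5 and 49.0 in Alb-Cre CCl4, 62.4, 44.2 and 24.8 in Alb-R3 oil and 26.9, 82.0 and 95.4 in Alb-R3 CCl4. Hbegf read 24.2, 12.6 and 32.2, then 24.3, 28.6 and 47.4, then 37.2, 15.9 and 10.6, then 29.9, 35.2 and 41.7 normalized counts in the same order of groups. Both genes had higher means after CCl4 in each genotype, but the groups overlapped. The log2 differences were 0.66 ± 0.51 and 0.53 ± 0.51 for Btc and 0.56 ± 0.49 and 0.89 ± 0.49 for Hbegf in Alb-Cre and Alb-R3 (limma adjusted p of 0.584, 0.526, 0.649 and 0.246).

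Areg, amphiregulin (ENSMUSG00000029378, chromosome 5, 91139599 to 91148432), and Ereg, epiregulin (ENSMUSG00000029377, chromosome 5, 91074622 to 91093646), were at the limit of counting. Areg was at 0 in 8 libraries. It read 1.03, 2.20 and 1.60 normalized counts in the Alb-R3 CCl4 libraries and 1.19 in 1 Alb-Cre oil library, a total of 6 estimated reads in Alb-R3 CCl4 and 1, 0 and 0 in Alb-Cre oil, Alb-Cre CCl4 and Alb-R3 oil. The limma adjusted p for CCl4 in Alb-R3 was 0.0521, 0.0328 without Alb-Cre oil replicate 3, and between 0.012 and 0.132 over 25 alternatives. Ereg was at 0 in 5 libraries and read at most 4.13 normalized counts. Areg reached a value of 1 in the 3 Alb-R3 CCl4 libraries and 1 other, so it passed the filter on low values only through the group where it is high, and the 8 of 25 alternatives that called it higher support nothing. Both ligands rest on a few reads, and no fold is given. Ereg, Areg and Btc lie on chromosome 5 between 91074622 and 91402994, in the order Ereg, Areg, Btc, yet Btc was above Ereg and Areg in all 12 libraries. Whether other genes lie between them was not checked.

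**Figure D4:**
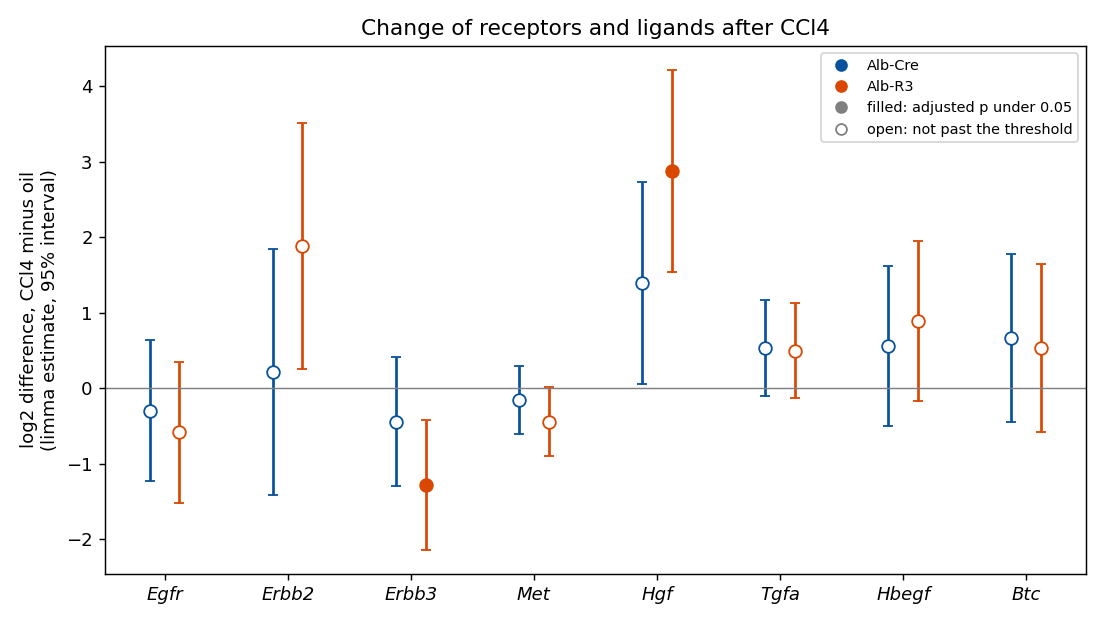
The log2 difference, CCl4 minus oil, of 8 members in Alb-Cre and Alb-R3 as limma estimates with 95% intervals, filled where the adjusted p was under 0.05. Hgf and Erbb3 in Alb-R3 are the filled points, and of the open points the intervals of Hgf in Alb-Cre and Erbb2 in Alb-R3 leave out 0.

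Counted over the members, CCl4 in Alb-R3 changed 2 of 10, with 1 higher (Hgf) and 1 lower (Erbb3), where 17.8% of all 20244 genes tested were called, 10.9% higher and 6.92% lower. After rescaling without mitochondrial genes Hgf, Erbb2 and Tgfa were called higher, beside Areg with the limit given above, and Erbb3 was not (limma adjusted p = 0.127, from 0.0183 to 0.182 over its alternatives). Leaving out Areg, the groups did not overlap for 2 of 9 members (Hgf and Erbb3), against 33.6% of all genes. The counts are no result about the members as a set. In Alb-Cre 0 of 10 were called by limma (1 at an unadjusted p under 0.05, Hgf), against 4.45% of all genes, and 1 of 9 did not overlap, against 23.6%. The median log2 difference of these 9 members was 0.28 in Alb-Cre and 0.50 in Alb-R3, beside 0.017 and 0.0016 over all genes tested. The Alb-Cre median is the value of Ereg itself, which rests there on 1 estimated read after oil and 2 after CCl4. It therefore gives no measure of the set.

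No member was called between the genotypes. Alb-R3 against Alb-Cre after oil gave 0 calls with limma (0 at an unadjusted p under 0.05, smallest adjusted p = 0.867), against 0.207% of all genes, and 0 of 9 members without overlap, against 11.3%. Erbb2 and Erbb3 had log2 differences of -1.42 ± 0.76 and 0.37 ± 0.40 there. After CCl4 there were 0 calls with limma (1 at an unadjusted p under 0.05, Areg, smallest adjusted p = 0.430), against 0.173% of all genes, and 0 of 9 did not overlap, against 12%. Egfr and Erbb3 differed by -0.54 ± 0.43 and -0.47 ± 0.40 on the log2 scale. The interaction test called 0 members with limma (1 at an unadjusted p under 0.05, Areg), beside 0% of all genes; it was 1.67 ± 1.07 for Erbb2 and -0.84 ± 0.56 for Erbb3. With 3 libraries a group these tests leave wide intervals, and a missed threshold does not show that the genotypes were alike.

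Of the other ErbB and HGF family genes, Nrg1 was the only one of 6 tested that passed the threshold, in both genotypes. Nrg1 encodes neuregulin, a ligand of Erbb3. It read 4.20, 4.86 and 3.58 normalized counts in Alb-Cre oil and 25.3, 26.3 and 26.6 in Alb-Cre CCl4. In Alb-R3 it read 1.09, 2.27 and 2.37 after oil and 94.9, 66.7 and 73.7 after CCl4. No groups overlapped: the Alb-R3 CCl4 libraries were the highest and the Alb-R3 oil libraries the lowest. The log2 difference on the log2(value + 1) scale was 2.38 ± 0.40 in Alb-Cre (limma adjusted p = 0.00261) and 4.79 ± 0.40 in Alb-R3 (limma adjusted p = 7.8e-06), and both were called in 26 of 26 alternatives. The interaction was 2.40 ± 0.56 and missed the threshold (limma adjusted p = 0.364, from 0.0536 to 0.645 over the alternatives), as did Alb-R3 against Alb-Cre after CCl4 (1.54 ± 0.40, limma adjusted p = 0.258, called in 2 of 26). So Nrg1 rose in Alb-R3 in the same comparison in which Erbb3 fell, although Nrg1 remained a low transcript. The Erbb3 call was kept in only 12 of 26 alternatives. Nrg1 also rose in Alb-Cre, where Erbb3 was not called (limma adjusted p = 0.651). A link between these genes was not tested.

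The other family genes were not called. Erbb4, a second neuregulin receptor, ranged from 3.10 to 108 normalized counts, Egf from 9.07 to 68.1 and Nrg4 from 116 to 267. Mst1, the HGF-like ligand of the receptor Mst1r and a secreted hepatocyte product, ranged from 5173 to 9613, and Mst1r from 12.6 to 41.3. Erbb4 had means of 74.5 ± 31.6 and 23.6 ± 21.8 (SD, n = 3) after oil and CCl4 in Alb-R3 (limma adjusted p = 0.0634). Epgn, Nrg2 and Nrg3 did not pass the filter on low values.

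The 5 lists of genes around the receptors held 103 genes, of which 98 were tested; CCl4 changed 8 of them in Alb-Cre, all higher, and 28 in Alb-R3, 23 higher and 5 lower. Leaving out each of the 12 libraries in turn kept 4 of the 8 calls and 15 of the 28 throughout. All these counts include Fosl1, which passed the filter on low values only through the CCl4 libraries. In the genotype and interaction comparisons limma called 0 of the 98 (11 after oil, 13 after CCl4 and 8 for the interaction at an unadjusted p under 0.05). Beside these counts stand the shares of all genes called, 17.8% in Alb-R3 (10.9% higher and 6.92% lower) and 4.45% in Alb-Cre (3.46% higher).

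Among 19 genes of ligand shedding and activation, 6 rose and 3 fell in Alb-R3 and 2 rose in Alb-Cre; the medians were 0.41 and 0.36. Those that rose included Plat and Plaur, the tissue plasminogen activator and the receptor of urokinase. Plat read 2.19, 1.13 and 1.18 normalized counts in Alb-R3 oil and 26.8, 63.0 and 58.5 in Alb-R3 CCl4 (limma adjusted p = 0.000424), and in Alb-Cre 2.10, 0 and 0 after oil and 26.3, 14.9 and 8.31 after CCl4 (limma adjusted p = 0.004). Plaur read 1.09, 0 and 7.10 and then 70.2, 19.0 and 26.5 in Alb-R3 (limma adjusted p = 0.00474). Rhbdf2, a partner that brings the ligand-shedding protease Adam17 to the surface, rose by 0.99 ± 0.20 on the log2 scale in Alb-R3 (limma adjusted p = 0.00512). Klkb1 and Hgfac, liver-made proteases that can activate HGF, fell by 0.98 ± 0.17 and 0.95 ± 0.24 in Alb-R3 (limma adjusted p of 0.00153 and 0.0159); the Hgfac change missed the threshold without Alb-R3 CCl4 replicate 3 (-0.80) or with the library labelled Alb-R3 oil replicate 3 left out (-0.81). In Alb-Cre these genes had differences of the same sign that missed the threshold. Plaur and Rhbdf2 were at 2.83 ± 0.75 and 0.62 ± 0.20 (limma adjusted p of 0.0516 and 0.121). Klkb1 and Hgfac were at -0.57 ± 0.17 and -0.73 ± 0.24 (limma adjusted p of 0.0762 and 0.116). Leaving out Alb-R3 oil replicate 1 or 2 reduced the 6 higher genes to 3, and in Alb-Cre the call of Rhbdf1, beside Plat, was lost in 8 of the 12 fits that left out 1 library.

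Of 26 kinases and adaptors below the receptors, 3 were higher and 1 lower in Alb-R3 and 1 was higher in Alb-Cre, with medians of -0.10 and -0.021; these shares are near those of all genes, 17.8% and 4.45%. Gab2, a docking adaptor, rose in Alb-R3 from 6.57, 6.80 and 5.91 normalized counts to 72.2, 33.0 and 32.1 (limma adjusted p = 0.00348). Src, a tyrosine kinase, rose there from 19.7, 11.3 and 16.6 to 66.0, 106 and 127 (limma adjusted p = 0.00102). Both were called in 26 of 26 alternatives, whereas the single Alb-Cre call, also Src, was lost in 6 of the 12 fits that left out 1 library.

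Of 26 receptor brakes and turnover genes, 5 rose and 1 fell in Alb-R3 and 0 were called in Alb-Cre, with medians of -0.022 and 0.028. Dusp6, a phosphatase that switches off ERK and is itself induced by ERK signaling, read 1175, 1039 and 860 normalized counts in Alb-R3 oil and 1762, 2452 and 2926 in Alb-R3 CCl4. The groups did not overlap, and the log2 difference was 1.196 ± 0.219 (limma adjusted p = 0.00261). Spry2 and Spry1, inhibitors of receptor tyrosine kinase signaling, rose by 2.22 ± 0.54 and 1.33 ± 0.35 on the log2 scale (limma adjusted p of 0.0129 and 0.0191). Spry2 missed the threshold with the library labelled Alb-R3 oil replicate 3 left out (1.82), as did Spry1 (1.03), and the Spry1 call was also lost without Alb-R3 oil replicate 2 (1.36) or Alb-R3 CCl4 replicate 3 (1.26). The count of 5 became 3 without Alb-R3 oil replicate 1 or 2 or Alb-R3 CCl4 replicate 3, and 2 with the library labelled Alb-R3 oil replicate 3 left out. In Alb-Cre the differences of Dusp6, Spry2 and Spry1 were 0.38 ± 0.22, 0.03 ± 0.54 and 1.09 ± 0.35 (limma adjusted p of 0.427, 0.991 and 0.107).

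Of 22 ERK-responsive transcripts, genes commonly induced when growth factor receptors signal, 9 rose and 0 fell in Alb-R3, where 10.9% of all genes were called higher, and 4 rose and 0 fell in Alb-Cre, where 3.46% were. The list medians were 0.91 and 0.70. Members that were not called included some with negative differences, such as the phosphatase gene Dusp1, at -1.52 ± 0.64 in Alb-R3 and -1.83 ± 0.64 in Alb-Cre (limma adjusted p of 0.122 and 0.145; named after its values were seen). Ccnd1, cyclin D1, which drives entry into the cell cycle, read 1120, 662 and 924 normalized counts in Alb-Cre oil and 2993, 6757 and 7758 in Alb-Cre CCl4. In Alb-R3 it read 296, 695 and 856 after oil and 4025, 3163 and 3493 after CCl4. Its rise was 2.61 ± 0.39 and 2.66 ± 0.39 on the log2 scale (limma adjusted p of 0.00118 and 0.000572). Dusp5, an ERK phosphatase, rose in Alb-R3 from 5.47, 17.0 and 3.55 to 196, 117 and 119 normalized counts (limma adjusted p = 0.000443). In Alb-Cre it was also called, at 2.24 ± 0.59 (limma adjusted p = 0.0481), a call kept in 11 of 26 alternatives. Fosl1, a subunit of AP-1, was at 0 in all 6 oil libraries and read 4.86, 6.86 and 7.48 in Alb-Cre CCl4 and 33.01, 10.99 and 12.82 in Alb-R3 CCl4. It passed the filter on low values only through the CCl4 groups, where it is high. Its calls, counted in the 9 and in the 4, therefore support nothing. Without Alb-Cre CCl4 replicate 1 or 2 the Alb-Cre count of 4 became 2.

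**Figure D5:**
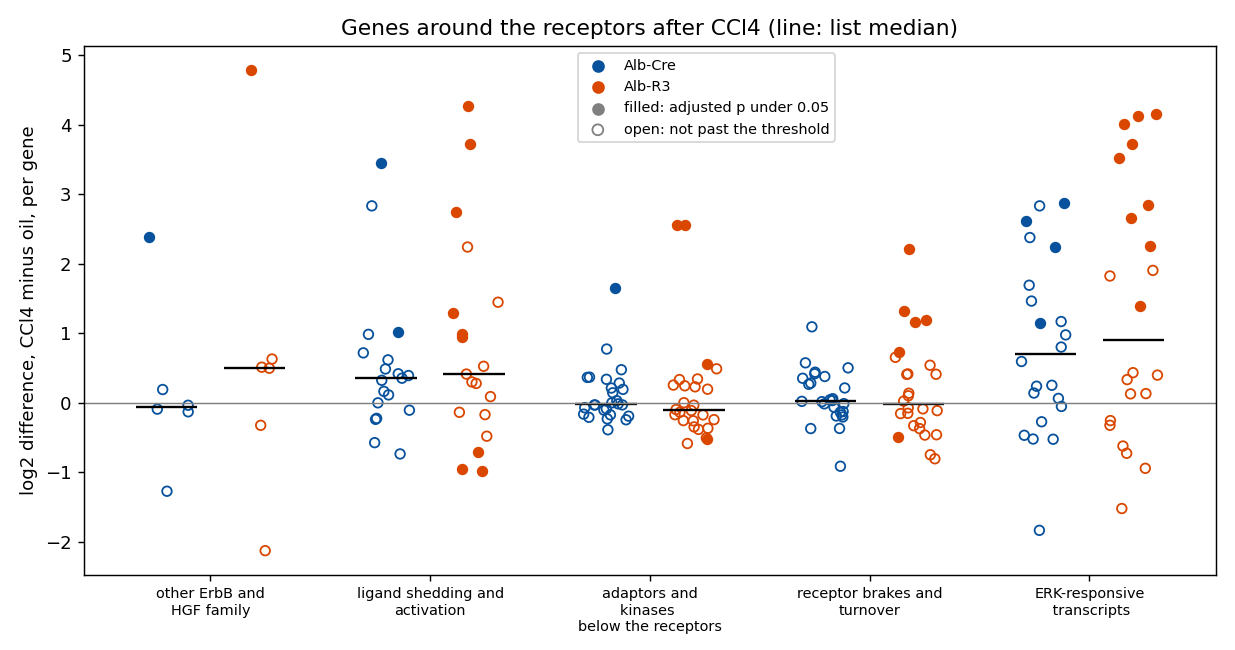
The log2 difference, CCl4 minus oil, of each tested gene in 5 lists around the receptors, in Alb-Cre and Alb-R3, with filled points for an adjusted p under 0.05 and a line at the list median. ERK-responsive transcripts have the highest medians, 0.70 and 0.91, and adaptors and kinases lie around 0.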

How the data were processed

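Per the file headers, the deposited table gives FPKM and a normalized count for each gene in each of the 12 samples. The normalized count deposited by the authors is a signal per gene and not a count of whole reads: 69.5% to 73.9% of low values per library were whole multiples of the value of 1 read (tolerance 0.02), so no count model was used. Tools listed in the submitters' processing notes are edgeR, with no version, and kallisto 0.44.0, and the build is GRCm38.p6.

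Tests were made on log2(normalized count + 1) by limma (3.58.1, under R 4.3.3) with the trend option, fitting 4 group means to all 12 samples (8 residual degrees of freedom). A gene was tested where 3 or more samples reached a value of 1, which left 20244 genes and kept all 10 members; Areg and Ereg did so in 4 and 6 samples. Adjusted p-values are Benjamini-Hochberg over all tested genes in each of 5 comparisons, two-sided, with a threshold of 0.05. A fold on this scale understates changes of low genes.

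All 10 members are named. Of each list, genes past the threshold may be named, by preference the 2 of largest fold in each direction, and Erbb4, Egf, Epgn, Nrg1, Nrg4, Hgfac, Mst1 and Mst1r whatever their values. Members and lists were chosen with earlier results of these data known. Gene positions were read from GENCODE M21 (GRCm38). Replicate pairs exceeded counting noise (chi-square over degrees of freedom from 35.3 to 888). Alternatives were other pseudocounts, filters, scalings, limma without trend, library weights, FPKM, the replicate block, only the 6 samples compared, thresholds of 0.1 and 0.01, and leaving out libraries.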

Additional observations from a re-analysis of the deposited data

How the results depend on the processing

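In Alb-R3, CCl4 called 2 of 10 members. It called 1 with quantile normalization, with the replicate number as a block, with only the samples compared and at a threshold of 0.01. It called 4 after rescaling without mitochondrial genes and 5 with library weights, each counting Areg, which rests on 6 reads. With no filter, with limma without trend and with FPKM the count stayed at 2, but the calls were Hgf and Areg. Erbb3 was not called there (limma adjusted p of 0.0679, 0.0875 and 0.182). Leaving out 1 library at a time gave 1 to 3, the 3 without Alb-Cre oil replicate 3, again counting Areg, or Alb-R3 oil replicate 3. The other 4 comparisons called 0 members in every setting tried. The replicate numbers did not pair the samples: same-numbered samples had deviations correlated from -0.19 to 0.20, and 3 of 18 pairs were over 0.1. Under the replicate block Erbb3 in Alb-R3 lost its call (limma adjusted p = 0.0681, from 0.0183 to 0.182 over the alternatives).

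The signs that turned were those of differences that had not passed the threshold. CCl4 against oil in Alb-Cre turned for Erbb2 with quantile normalization (-0.020) and when 1 library was left out (range -0.052 to 0.45), for Met after rescaling (0.040) and with FPKM (0.073), and for Egfr when 1 library was left out (range -0.75 to 0.086). In Alb-R3 it turned for Btc with quantile normalization (-0.052). Alb-R3 against Alb-Cre after CCl4 turned for Erbb3 when 1 library was left out (range -0.77 to 0.050) and without Alb-R3 CCl4 replicate 1 and Alb-R3 oil replicate 3 together (0.050). The cause was not tested. Rescaling moved the median of all genes to 0.19 in Alb-Cre and 0.37 in Alb-R3, and FPKM to 0.15 and 0.17; relative to it, Erbb3 in Alb-R3 was -1.24 and -1.17, and Hgf 2.90 and 2.11. Counting error limits Areg, Ereg and Erbb2, and the spread between 3 libraries limits the rest.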

Other observations

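The members moved together only in part over the 12 libraries. On the log2 scale Erbb3 and Met had a Pearson r of 0.80, Hgf and Tgfa 0.79, and Hgf and Btc and Tgfa and Btc each 0.69. The points share libraries and treatment, and the values are a description. Erbb3 and Met both had their lowest value in Alb-R3 CCl4 replicate 1, the library rich in mitochondrial transcripts. The tested genes most like each member over the same 12 libraries, by Pearson r, were Rnf114 (0.958), Magi1 (0.923) and Vps33a (0.919) for Egfr, Zyg11b (0.981), Tmem131 (0.980) and Dgcr2 (0.977) for Met, and Rbm33 (0.9746), Enpp5 (0.972) and Npc1 (0.961) for Erbb3. For Hgf they were Hltf (0.978), Uhrf2 (0.973) and Mtrex (0.962), for Tgfa Samd4b (0.960), Ddb1 (0.957) and Chmp6 (0.954), and for Btc Cnep1r1 (0.952), Sntb1 (0.947) and Dusp22 (0.924). For Erbb2 they were Hspa12b (0.947), Chst7 (0.930) and Fam161b (0.920), and for Hbegf Vmn1r87 (0.856), Adgrl3 (0.852) and Calhm2 (0.850), both at low counts.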
